A study of Mus musculus with 12 samples.

Results

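The vitamin D receptor gene Vdr, the 3 genes of its dimer partners (Rxra, Rxrb and Rxrg) and the genes of the 2 enzymes that make and break down the active hormone (Cyp27b1 and Cyp24a1) were followed through atria and ventricles of mice that express an expanded CUG repeat RNA in the heart. These 6 genes were taken by symbol from a table of 51826 gene entries. Vdr was selected on its rise in atria, so its atrial difference is given below as a description with no test, whereas the other members were taken as its partners and enzymes. Earlier results of these data, in both chambers, were known when the members and gene lists were chosen, so the tests below are not independent of that knowledge.

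The study asked how CUG repeat RNA, the disease RNA of myotonic dystrophy type 1, changes the heart transcriptome. RNA-seq had been run on poly(A) RNA from the atria and the ventricles of 3 CUG960 +dox mice (V119, V120 and V123) and 3 MHCrtTA +dox control mice (V327, V333 and V334), which gave 12 libraries of 116127966 to 160676189 counts each. CUG960 mice were TREDT960I(H)/MHCrtTA(hemi): they carried a transgene of 960 interrupted CTG repeats within a fragment of human DMPK under a tetracycline-responsive promoter, and the MHCrtTA transactivator driven by the αMHC promoter, which is active in cardiomyocytes. Controls were MHCrtTA(hemi) and lacked the repeat transgene. All 6 mice were FvB females of 10 weeks that received doxycycline from postnatal day 1, so transactivator and drug are shared by both groups, and the atria and ventricles of 1 animal are not independent. The RNA came from whole tissue, in which cells other than cardiomyocytes do not use the αMHC promoter.

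VDR is a nuclear receptor. It binds the hormone 1,25-dihydroxyvitamin D, pairs with a retinoid X receptor (RXR) and sits on DNA at repeats of a short half-site, where the pair recruits coactivators or corepressors. CYP27B1 makes the hormone from its precursor, mainly in kidney, and CYP24A1 inactivates it. Cyp24a1 is a classical target of liganded VDR. RXRs are shared partners, which also pair with the retinoic acid, thyroid hormone, PPAR and liver X receptors, and RXRγ is the family member most restricted to muscle and brain.

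Vdr (ENSMUSG00000022479.15) lies on the minus strand of GRCm38 at chr15:97854425-97910630. Rxrg (ENSMUSG00000015843.10) lies on the plus strand at chr1:167598384-167639623. The RefSeq start regions of these genes are shown because Vdr was the member with the largest difference between genotypes and Rxrg the one whose difference was not the same in both chambers. Each run is the 250 bases before an annotated transcription start (RefSeq, build GRCm38.p6), with AGGTCA (the nuclear receptor half-site) and GGGCGG (a GC box) in capitals where they occur on either strand. The Vdr run is chr15:97908297-97908546, minus strand, and its start lies 2334 bases inside the annotated gene, so other starts exist upstream; 14 of its bases also fall in an annotated Vdr exon. The Rxrg runs are chr1:167598112-167598361 and chr1:167618015-167618264, both plus strand.
Vdr: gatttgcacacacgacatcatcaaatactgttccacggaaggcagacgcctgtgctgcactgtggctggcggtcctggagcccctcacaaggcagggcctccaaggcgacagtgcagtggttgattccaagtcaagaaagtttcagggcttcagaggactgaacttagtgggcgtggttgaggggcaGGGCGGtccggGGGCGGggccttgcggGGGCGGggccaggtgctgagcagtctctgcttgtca
Rxrg, first start: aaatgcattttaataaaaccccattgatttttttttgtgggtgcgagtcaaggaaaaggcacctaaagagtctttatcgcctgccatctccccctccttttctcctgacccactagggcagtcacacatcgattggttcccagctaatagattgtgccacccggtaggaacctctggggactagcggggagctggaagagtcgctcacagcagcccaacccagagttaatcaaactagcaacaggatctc
Rxrg, second start: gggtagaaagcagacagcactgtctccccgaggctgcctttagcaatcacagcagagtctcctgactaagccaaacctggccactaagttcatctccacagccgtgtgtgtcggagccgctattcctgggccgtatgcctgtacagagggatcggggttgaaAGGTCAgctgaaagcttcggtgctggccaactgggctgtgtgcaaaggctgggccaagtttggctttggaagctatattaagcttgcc
The Vdr run held 3 GGGCGG matches, and its GC content was 61.2% against a median of 52.4% over all 32851 start regions of the same length. GGGCGG was present in 32.74% of those regions. Neither Rxrg run held it. Of the printed runs only that of the second Rxrg start held AGGTCA, once, which was present in 14.02% of all regions; the region of the second Rxra start held 2 matches, on opposite strands. No member's region held 2 copies of AGGTCA in 1 direction with 3 bases between, the classical VDR element, which contains the shorter motif and was found in 2 of the 32851 regions (0.006088%), nor TATAAA (12.37% of regions). These matches describe letters only, and a region without a match says nothing about binding. RefSeq regions were matched for 5 of the 6 members, with Cyp24a1 as the member not matched.

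The chamber labels were checked on chamber markers. Levels are given as CPM, the counts of a gene relative to the library total after TMM scaling. Myl7, the atrial myosin light chain, reached 2842 ± 38.4 CPM in control atria and 2910 ± 394 CPM in CUG960 atria (SD, n = 3), against 10.8 ± 7.57 and 18.8 ± 32.1 CPM in ventricles. Myl2, the ventricular light chain, averaged 9406 and 9679 CPM in control and CUG960 ventricles and 18.0 and 9.63 CPM in the respective atria. The V123 ventricles stood apart from the other CUG960 ventricles: Myl7 was 55.9 CPM there and 0.192 and 0.304 CPM in V119 and V120.

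Vdr differed more between chambers than between genotypes, and it was higher in CUG960 hearts in both. In control ventricles the V327, V333 and V334 libraries held 0.614, 0.446 and 0.535 CPM, from 68, 47 and 60 counts. CUG960 ventricles held 2.96 (V119), 2.46 (V120) and 2.61 (V123) CPM, from 1097 counts in all. Every CUG960 ventricle was above every control ventricle. In control atria the values were 13.3, 12.9 and 12.5 CPM, and in CUG960 atria 70.8, 64.8 and 70.0 CPM, in the same order of mice. The 4 groups formed an order without overlap, from control ventricles (0.532 ± 0.0841 CPM, SD, n = 3) through CUG960 ventricles (2.67 ± 0.255) and control atria (12.9 ± 0.409) to CUG960 atria (68.5 ± 3.29). CUG960 ventricles thus stayed below the control atria.

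**Figure D1:**
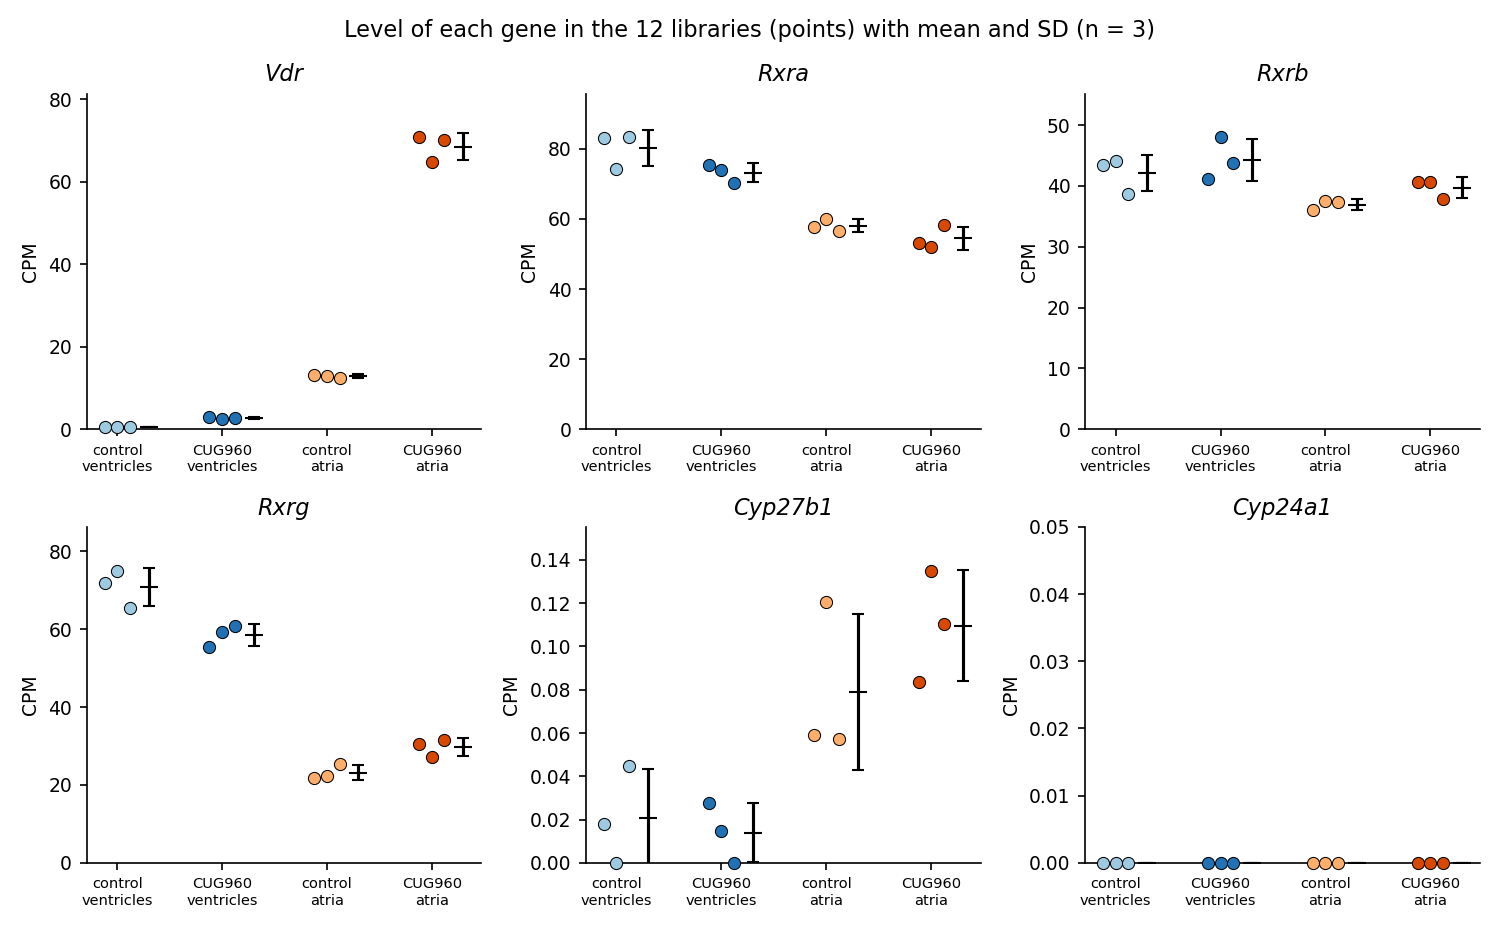
CPM (y axis, linear from 0) of Vdr, Rxra, Rxrb, Rxrg, Cyp27b1 and Cyp24a1 in the 12 libraries, by chamber and genotype (x axis); points are libraries, and the black mark beside them is the group mean with its SD (n = 3). Vdr steps up through the 4 groups from 0.532 to 68.5 CPM, Rxrg is higher in ventricles, and Cyp24a1 is at 0 in all libraries.

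In ventricles, which the selection rule did not name, Vdr rose 5.02-fold (log2 fold change 2.33, SE 0.19, 95% confidence interval 1.90 to 2.75; edgeR quasi-likelihood test, adjusted p = 0.000155). In this tissue RNA a higher level per cell and more cells with the transcript cannot be told apart. A gene was called changed at an adjusted p under 0.05 with a fold change of at least 1.5. This held for 4.75% of the 16909 genes tested in ventricles and for 1 of the 4 members tested there, Vdr. Its rise ranked 20th among the 12851 genes that averaged 1 CPM or more in ventricles. That rank is a description only: Vdr averaged 0.532 CPM in control ventricles and met the 1 CPM level only through its CUG960 libraries. Between 2.22 and 2.45 on the log2 scale remained when any 1 mouse was left out, with adjusted p from 0.000674 to 0.00135. Without V123, whose ventricles stood apart in Myl7, the Vdr change in ventricles was 2.34 on the log2 scale (edgeR adjusted p = 0.000735). The part of atrial tissue in the Vdr level of that library was not tested. In atria, where Vdr was selected, its level was 5.32-fold higher (log2 fold change 2.41, SE 0.06), the 13th largest difference upward among 13102 genes that averaged 1 CPM or more. The difference between the 2 chambers' log2 fold changes was 0.08. Of all 17650 genes tested in atria 5.49% were called. Apart from Vdr, 4 members were tested there and 0 were called by edgeR (1, Rxrg, at an unadjusted p under 0.05) or DESeq2.

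Ventricular Vdr was a larger share of the atrial level than that of 7 of the 8 atrial markers. Within each mouse it was 3.45% to 4.63% of the atrial CPM in controls and 3.73% to 4.18% in CUG960 mice. For Myl7 the share was 0.175% to 0.690% in controls, and in CUG960 mice 0.00580% in V119, 0.0105% in V120 and 2.22% in V123. Summed over the 8 atrial markers, ventricles held 0.308% to 0.646% of the atrial CPM in controls and 0.435% to 1.53% in CUG960 mice. The share of Vdr was above that of Myl7 in each of the 6 mice. Nr2f2, an atrial transcription factor that vessels also express, stood higher still, at 11.2% to 18.8%. The atrial Vdr level in this share was among the values used to select the gene. Whether atrial tissue contributed to ventricular Vdr was not tested.

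**Figure D2:**
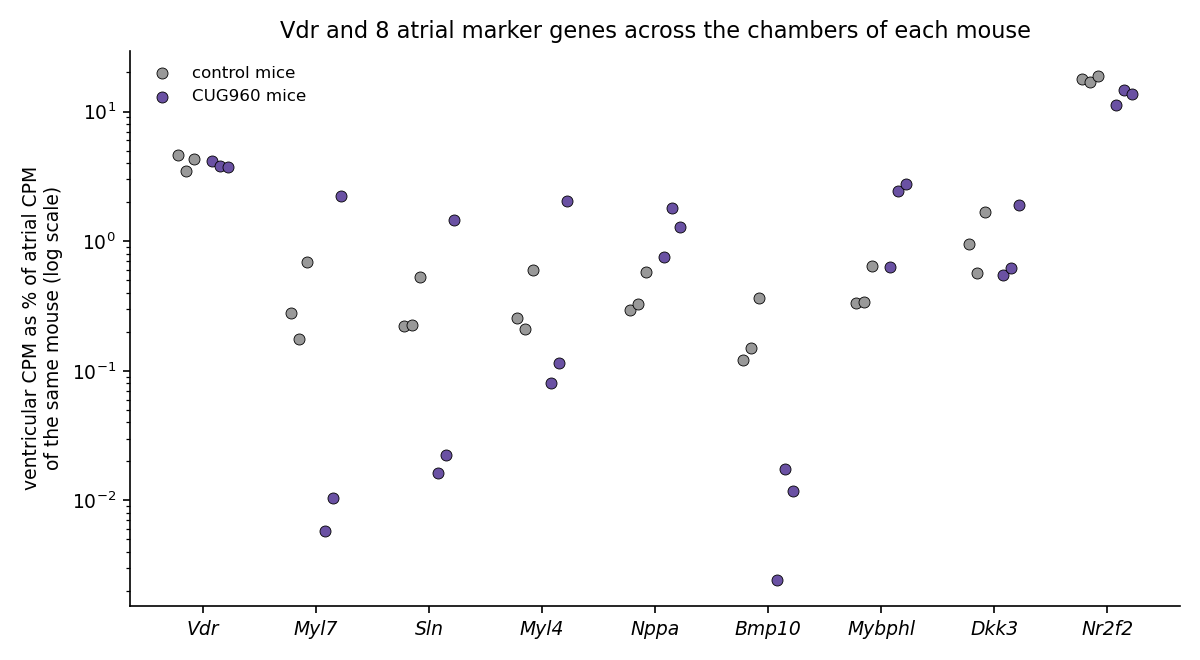
Ventricular CPM as a percentage of the atrial CPM of the same mouse (y axis, log scale) for Vdr and 8 atrial marker genes (x axis); each point is 1 mouse, grey for the 3 control and purple for the 3 CUG960 mice. The Vdr points lie close together, between 3.45% and 4.63%, while Myl7, Sln and Myl4 spread widely among CUG960 mice.

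Of the 3 partners, Rxra and Rxrb passed no test of genotype, and the 2 chambers' Rxrg values lay on opposite sides of 0. RXRα is the receptor that most tissues use. Rxra (chr2:27676440-27762957, plus strand) held 57.8, 60.1 and 56.5 CPM in control atria and 53.1, 52.1 and 58.2 CPM in CUG960 atria, groups that overlapped. Its log2 fold change was -0.09 in atria (95% confidence interval -0.24 to 0.05, adjusted p = 0.359) and -0.13 in ventricles (-0.30 to 0.04, adjusted p = 0.303). Rxrb (chr17:34031812-34038399, plus strand), the gene of the broadly expressed RXRβ, held 36.0, 37.5 and 37.4 CPM in control atria and 40.7, 40.7 and 37.8 CPM in CUG960 atria. These 2 groups did not overlap, but the log2 fold change of 0.10 (-0.03 to 0.24) did not pass (adjusted p = 0.265), and in ventricles it was 0.08 (-0.12 to 0.27, adjusted p = 0.639). The intervals keep any change of Rxra and Rxrb under the fold limit of 1.5 in both chambers.

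Rxrg held 21.8, 22.4 and 25.3 CPM in control atria (V327, V333 and V334) and 30.5, 27.1 and 31.4 CPM in CUG960 atria (V119, V120 and V123). In ventricles it held 72.0, 75.0 and 65.4 CPM in controls and 55.3, 59.2 and 60.7 CPM in CUG960 mice. CUG960 libraries were above all controls in atria and below all controls in ventricles. The log2 fold change was 0.36 in atria (SE 0.08, adjusted p = 0.0279) and -0.28 in ventricles (SE 0.08, adjusted p = 0.0568), both under the fold limit. With 1 mouse left out the adjusted p of Rxrg ran from 0.0281 to 0.1 for atria, and for ventricles from 0.0443 to 0.179. The difference between the 2 changes was tested itself, over all 12 libraries, and came to 0.63 on the log2 scale (SE 0.12, 95% confidence interval 0.38 to 0.88, adjusted p = 0.02). Such a chamber difference, at an adjusted p under 0.05, was called for 1.38% of 18327 genes and for Rxrg alone among the 4 members tested apart from Vdr. With the mouse as a block the adjusted p was 0.0407. It did not pass without V327 (0.58, adjusted p = 0.112), V333 (0.55, adjusted p = 0.149), V119 (0.58, adjusted p = 0.119) or V123 (0.62, adjusted p = 0.0766).

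Members whose groups did not overlap numbered 2 of the 4 tested in atria apart from Vdr (Rxrb and Rxrg), where 35.7% of all tested genes did not overlap. In ventricles they numbered 2 of 4 (Vdr and Rxrg), where the share over all genes was 31.2%.

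**Figure D3:**
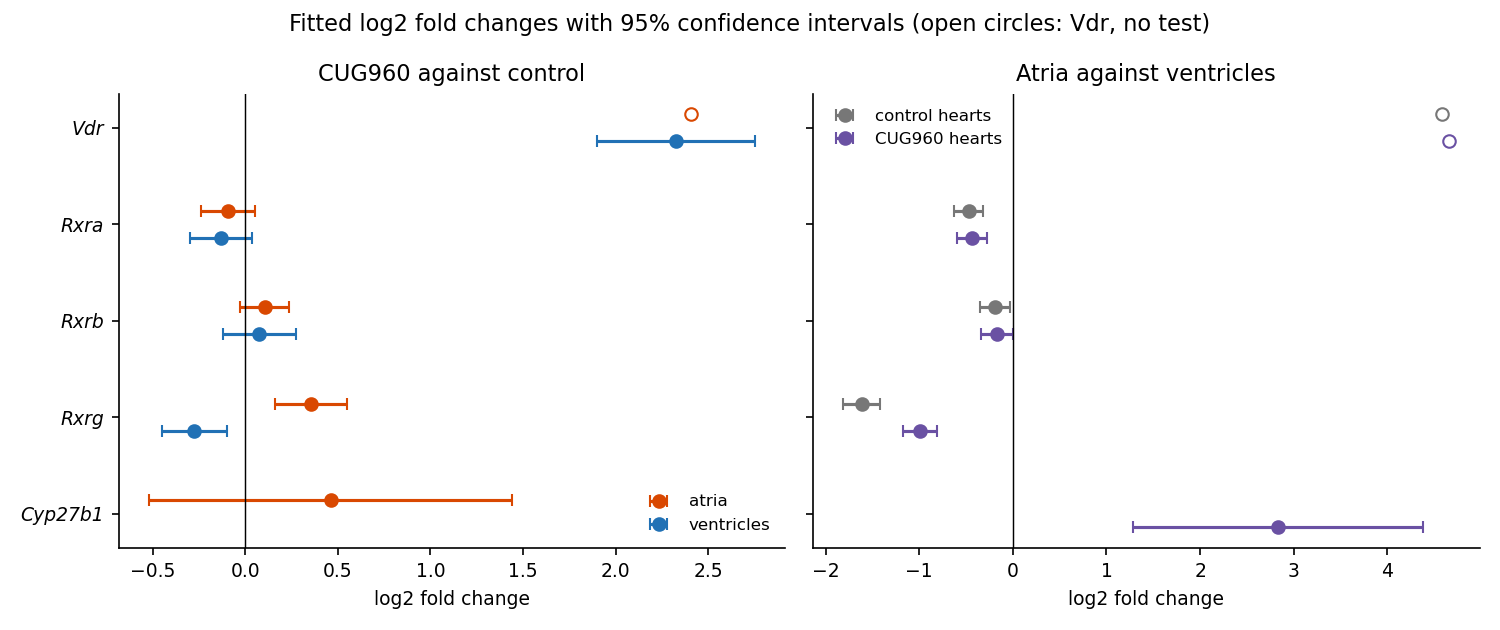
Fitted log2 fold changes (x axis) of the members (y axis), CUG960 against control in each chamber on the left and atria against ventricles in each genotype on the right, with 95% confidence intervals; open circles are Vdr values given without a test. Rxrg lies on opposite sides of 0 in atria and ventricles on the left, and Rxra and Rxrb stay near 0.

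Both enzyme genes were close to or at 0. Cyp24a1 (chr2:170482708-170497145, minus strand) had 0 counts in each of the 12 libraries, which allows up to 3 counts, or 0.0172 to 0.0285 CPM, in a library by counting error alone. Cyp27b1 (chr10:127048250-127053006, plus strand) had 9, 21 and 9 counts in control atria and 12, 21 and 15 in CUG960 atria. In ventricles it had 2, 0 and 5 counts in controls and 4, 2 and 0 in CUG960 mice. The atrial groups overlapped, with a log2 fold change of 0.46 (95% confidence interval -0.52 to 1.44, edgeR adjusted p = 0.513). Cyp27b1 passed the filter on low counts in atria mainly through its CUG960 libraries, so this value leans toward a rise. Ventricular counts were too low for the fit, and an exact two-sided permutation test on CPM gave p = 0.7, where 3 against 3 libraries cannot go below 0.1.

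Between chambers the members differed in direction. Vdr was 24.1-fold higher in atria than in ventricles of control mice and 25.4-fold higher in CUG960 mice, given without a test because the atrial libraries were used to choose it. Rxrg was lower in atria, by 1.62 on the log2 scale in controls (SE 0.08, adjusted p = 1.93e-06) and by 0.99 in CUG960 mice (SE 0.08, adjusted p = 9.47e-06). Chamber differences were common: 34.9% of genes were called in controls, and of the 3 members tested apart from Vdr Rxrg was. In CUG960 hearts 33.6% of genes were called, and of the same 3 members Rxrg was. Cyp27b1 passed the filter on low counts in CUG960 hearts only through its atrial libraries, with 48 counts in atria and 6 in ventricles, so it had to differ there and its fitted log2 fold change of 2.83 (SE 0.68) is given as a description. In control hearts, where Cyp27b1 could not be fitted, 39 atrial counts stood against 7 ventricular ones and the exact permutation test gave p = 0.1, the smallest value possible. Rxra, Rxrb and Rxrg were without overlap between chambers in both genotypes, beside 64.6% and 62.6% of all genes.

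The chamber results of Rxra and Rxrb turned on the scaling. With TMM scaling Rxra was lower in atria by 0.47 in controls (adjusted p = 0.000472) and 0.44 in CUG960 mice (adjusted p = 0.000694) on the log2 scale, under the fold limit. Rxrb was lower by 0.19 (adjusted p = 0.0455) and 0.17 (adjusted p = 0.0903). With library totals alone, an alternative chosen after seeing the data, the median log2 difference of all genes between chambers moved from 0.03 to 0.49 in controls and from 0.01 to 0.40 in CUG960 mice. Rxra then gave -0.02 and -0.05, Rxrb turned to 0.26 and 0.22, and Rxrg kept its direction at -1.16 and -0.60. Vdr went from 4.59 to 5.04 in controls and from 4.66 to 5.06 in CUG960 mice. The share of called genes that were higher in atria went from 52.4% to 82.7% in controls and from 51.2% to 79.7% in CUG960 mice under that scaling. It went from 63.1% to 80.6% higher in CUG960 for the ventricular comparison, and from 49.8% to 34.5% positive for the chamber difference.

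Per kilobase of exon and with TMM scaling, the RXR pool was larger in ventricles and its makeup differed. The size of the pool difference between chambers depends on the scaling, whereas shares within a library do not. Summed over Rxra, Rxrb and Rxrg it was 56.1 ± 2.29 CPM per kb in control and 49.99 ± 1.61 in CUG960 ventricles, and 30.0 ± 0.842 and 32.9 ± 1.17 in the respective atria (SD, n = 3). Rxrg made up 54.9% ± 1.85 of this sum in control ventricles and 33.6% ± 1.96 in control atria. In CUG960 mice its share was 50.9% ± 1.46 in ventricles and 39.2% ± 1.66 in atria. Against the same pool, the Vdr level per kb was 0.168% ± 0.0270 in control ventricles and 0.950% ± 0.122 in CUG960 ventricles. In atria it was 7.61% ± 0.453 in controls and 36.9% ± 0.734 in CUG960 mice, so RXR transcript per kb exceeded Vdr transcript in all 12 libraries.

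Among 16 receptor genes whose products pair with RXR, Vdr changed place between groups. Because Vdr was selected on its rise in atria, its places are a description. In control ventricles it ranked 13th at 0.0942 ± 0.0149 CPM per kb, below Nr4a2 (0.186 ± 0.0462) and beside Nr1h4, the bile acid receptor gene, whose 0.0740 ± 0.0279 was within the spread. In CUG960 ventricles it ranked 12th at 0.473 ± 0.0452, between Pparg (2.34 ± 0.534) and Nr4a2 (0.184 ± 0.0142). In control atria it ranked 10th at 2.28 ± 0.0724, not separable from Thrb (2.25 ± 0.132). In CUG960 atria it ranked 3rd at 12.1 ± 0.583, not separable from the liver X receptor genes Nr1h2 (12.4 ± 1.98) and Nr1h3 (11.9 ± 0.709). Thra, the thyroid hormone receptor α gene and the most abundant of the set on average, stayed between 14.7 and 18.8 CPM per kb in the 4 groups.

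**Figure D4:**
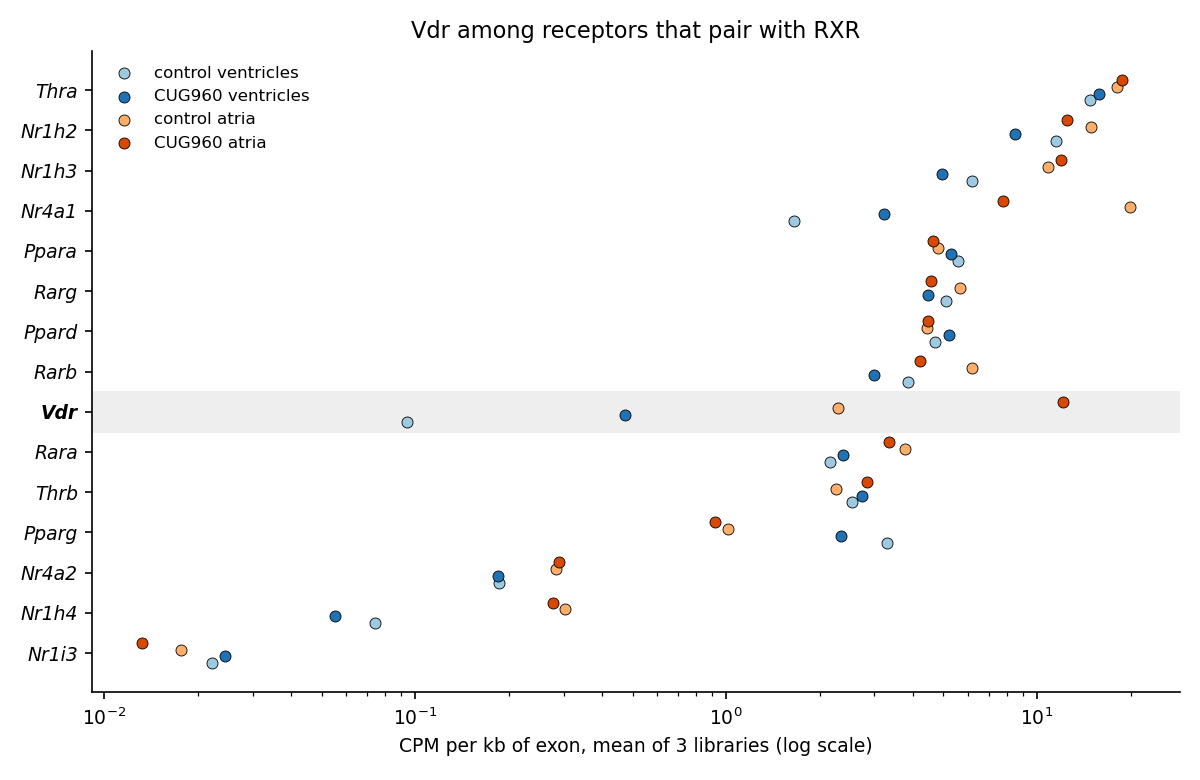
Group mean level in CPM per kb of exon (x axis, log scale) of Vdr and the genes of other receptors that pair with RXR (y axis), by chamber and genotype (n = 3 libraries for each point); Nr1i2, at 0 in all libraries, is not drawn. The Vdr points run from 0.0942 to 12.1 CPM per kb, the widest spread on this log axis. Vdr was selected on its rise in atria, so this spread is a description.

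Excluding Vdr, the genes of receptors that pair with RXR showed 1 call. Of 15 genes 14 were tested in each chamber, and 0 were called in atria by edgeR (4 at an unadjusted p under 0.05) and 0 by DESeq2, with a median log2 fold change of -0.14 against -0.01 for all genes. In ventricles Nr4a1, an orphan receptor of the immediate early response, rose from 5.08, 4.64 and 7.66 CPM in controls to 14.7, 11.1 and 7.95 CPM (log2 fold change 0.96, SE 0.24, adjusted p = 0.0367). Nr4a1 did not pass without V327, V333, V119 or V120 (0.72 to 0.97, adjusted p = 0.0999 to 0.117), nor in a single fit of all 12 libraries (adjusted p = 0.535). Its atrial values were scattered, from 9.18 to 179 CPM in controls, with V334 the highest, and from 5.70 to 43.0 CPM in CUG960 mice. The atrial log2 fold change of Nr4a1 was -1.36 (adjusted p = 0.424), and 0.83 without V334.

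No gene on the list of known VDR targets was called higher in CUG960 hearts. The list was not divided by the direction in which VDR acts on each gene, and VDR activity was not tested. Of 24 listed targets 10 had no library above 3 counts, among them Cyp24a1, S100g, Pth and Cyp3a11 at 0 in all libraries. In atria 11 targets were tested, 10 had a negative log2 fold change, and the median was -0.29 against -0.01 for all genes. Thbd, the gene of the endothelial anticoagulant receptor thrombomodulin, was the 1 target called in atria. It held 52.2, 59.3 and 48.4 CPM in controls and 27.3, 33.1 and 32.6 CPM in CUG960 mice, a fall by 0.78 on the log2 scale (SE 0.10, adjusted p = 0.0024). Spp1, the osteopontin gene, had the 1 positive value, 0.93 (adjusted p = 0.258). In ventricles 9 targets were tested and 0 were called by edgeR (2 at an unadjusted p under 0.05) or DESeq2, with a median of -0.16. Thbd was -0.42 there (adjusted p = 0.103) and, of the mice left out in turn, passed only without V123 (-0.59, adjusted p = 0.0345). Igfbp3, the most abundant target per kb, ranged from 23.0 to 137 CPM over the libraries and its log2 fold change was -0.01 in atria and -0.13 in ventricles (adjusted p = 0.966 and 0.581).

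Pecam1, the most abundant of 5 endothelial markers, fell with Thbd in atria, by 0.71 on the log2 scale (SE 0.10, adjusted p = 0.00431). All 5 endothelial markers had a negative log2 fold change in both chambers, with Pecam1 called in atria and 0 in ventricles by edgeR or DESeq2 (5 at an unadjusted p under 0.05). Their summed level was 504 to 600 CPM in control and 391 to 436 CPM in CUG960 atria. All 7 fibroblast markers, led by Dcn, also had a negative log2 fold change in atria, with a median of -0.29 and summed levels of 2172 to 2545 CPM in control and 1839 to 2174 CPM in CUG960 libraries; in ventricles their median was 0.01. The part of endothelial or fibroblast RNA in the values of the target list was not tested.

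The genes that take up, activate and break down vitamin D showed 2 changes. Cyp3a13, a cytochrome P450 of the 3A family and the 1 gene of 4 on the breakdown list that could be tested, rose in both chambers. In atria its counts were 39, 33 and 35 in controls and 69, 85 and 84 in CUG960 mice (log2 fold change 1.299, SE 0.24, adjusted p = 0.0105). In ventricles they were 31, 43 and 40 against 148, 128 and 78 (1.296, SE 0.28, adjusted p = 0.0213). The ventricular call was lost without V327, V334, V119 or V120 (adjusted p = 0.0531 to 0.0792). The group means of Cyp3a13 were all under 1 CPM, from 0.223 to 0.855 CPM, and at 0.0753 to 0.289 CPM per kb.

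Cubn, which encodes cubilin, an endocytic receptor that takes up the vitamin D carrier protein in kidney, rose in ventricles only. It held 0.380, 0.190 and 0.214 CPM in control ventricles and 4.05, 2.83 and 3.76 CPM in CUG960 ventricles (log2 fold change 3.76, SE 0.28, adjusted p = 8.68e-05), with 20 to 42 counts in controls and 391 to 590 in CUG960 mice. In atria the control range of 0.408 to 0.833 CPM overlapped the CUG960 range of 0.391 to 0.676 CPM (-0.15, adjusted p = 0.791). The chamber difference itself was -3.91 on the log2 scale (SE 0.45, adjusted p = 0.00178). Amn, which encodes the amnionless partner that brings cubilin to the membrane, had at most 2 counts in any ventricular library, and Lrp2, the gene of the co-receptor megalin, at most 11. Cubn overlaps the antisense transcript Gm13270, which had 322 counts over the 12 libraries. Cyp27a1, a mitochondrial sterol hydroxylase and the most abundant gene of the uptake and activation list per kb, stayed between 14.2 and 17.8 CPM in the 12 libraries. In all, 0 of 7 tested genes of this list were called in atria by edgeR (2 at an unadjusted p under 0.05) or DESeq2, and 1 of 5, Cubn, in ventricles.

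Coregulators of nuclear receptors were all expressed and 0 of 20 were called in either chamber by edgeR or DESeq2. At an unadjusted p under 0.05 there were 6 in atria and 2 in ventricles. Their median log2 fold change was -0.03 in atria and 0.01 in ventricles, against -0.01 for all genes in both, and single values ran from -0.55 to 0.20 in atria and from -0.48 to 0.23 in ventricles. Kat2b, a histone acetyltransferase gene and the most abundant of the list per kb, lay between 115.6 and 168.4 CPM. The receptors of mineral hormones also gave 0 calls by edgeR or DESeq2, of 3 tested in atria (1 at an unadjusted p under 0.05) and 2 in ventricles (0 at that level). Their most abundant gene per kb was Fgfr1.

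Retinoid genes, which supply the ligands of the RAR and RXR receptors, were lower where they were called. Rbp4, the plasma retinol carrier gene, fell from 2.58, 4.17 and 3.09 CPM to 1.54, 2.16 and 1.60 CPM in atria (log2 fold change -0.89, SE 0.21, adjusted p = 0.0275). In ventricles it fell from 1.18, 1.20 and 1.43 CPM to 0.508, 0.551 and 0.791 CPM (-1.04, SE 0.24, adjusted p = 0.0256). The Rbp4 call did not pass in atria without V333, V334, V119 or V123 (adjusted p = 0.0523 to 0.101), nor in ventricles without V327, V334, V119 or V120 (adjusted p = 0.062 to 0.0866). Aldh1a2, which encodes an enzyme of retinoic acid synthesis, fell in ventricles from 4.17, 4.49 and 3.66 CPM to 2.75, 2.64 and 2.05 CPM (-0.73, SE 0.16, adjusted p = 0.0201) and was -0.16 in atria (adjusted p = 0.368). It did not pass without V327, V333, V120 or V123 (adjusted p = 0.053 to 0.0687). Of 19 retinoid genes, 14 were tested in atria (1 called, median -0.25) and 12 in ventricles (2 called, median -0.23). Dhrs3, the most abundant of them per kb, ranged from 20.2 to 46.9 CPM. The 4 adipocyte markers, led by Adipoq, summed to 3.69 to 13.6 CPM in control and 1.66 to 5.05 CPM in CUG960 atria, and to 3.36 to 4.90 and 0.572 to 2.60 CPM in ventricles. All 4 had a negative log2 fold change in both chambers, with a median of -1.09 in atria and -1.53 in ventricles. The part of adipocyte or fibroblast RNA in the retinoid values was not tested.

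Over all 98 listed genes, 4 of 74 tested were called in atria (5.41%) and 6 of 67 in ventricles (8.96%), beside 5.49% and 4.75% of all genes. Vdr is counted in both, and its place in the atrial count was fixed by its selection. Without V327 or without V120 the ventricular count was 2.

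**Figure D5:**
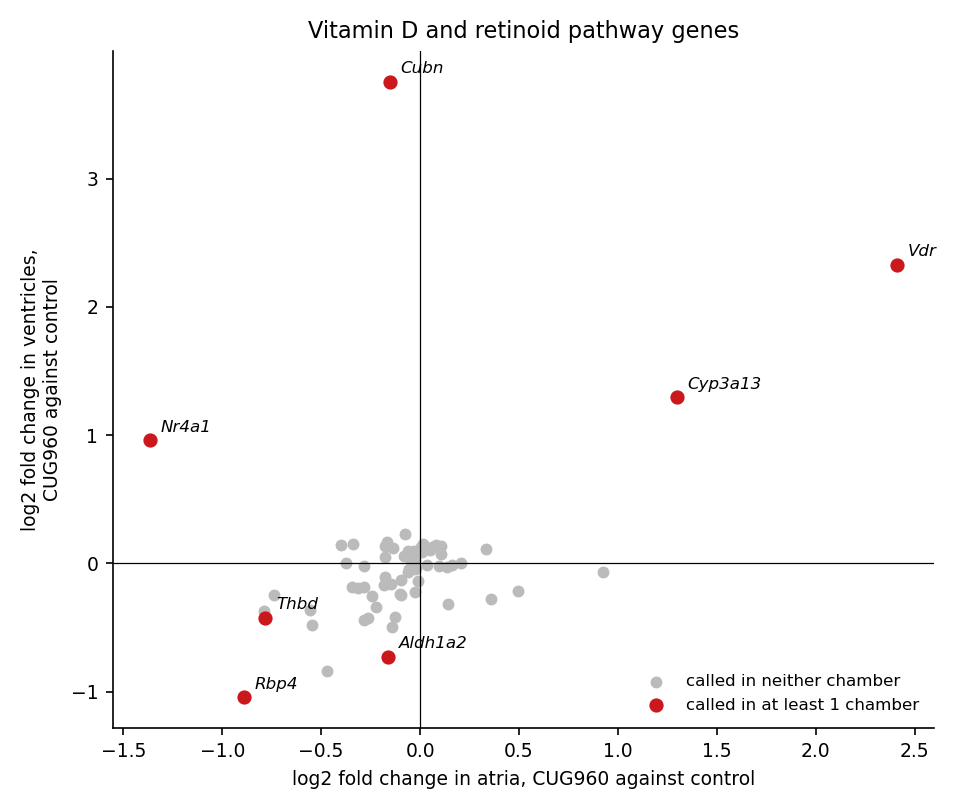
Log2 fold changes, CUG960 against control, in atria (x axis) and ventricles (y axis) for the 66 listed vitamin D, retinoid and receptor genes tested in both chambers; red points were called in at least 1 chamber. Vdr, selected on its atrial value, and Cyp3a13 lie at the upper right, Cubn at the top near an atrial change of 0, and most genes cluster around the origin.

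Of the genes next to Vdr on chromosome 15 none was called. Within 200 kb of the gene, 9 of 14 annotated genes in the table were tested in each chamber, and 0 were called in atria or ventricles by edgeR or DESeq2 (2 and 4 at an unadjusted p under 0.05). The nearest, Hdac7, a histone deacetylase gene at 9.9 kb, gave -0.48 in atria (adjusted p = 0.0246, under the fold limit) and -0.26 in ventricles (adjusted p = 0.078). Slc48a1, a heme transporter gene at 61.7 kb, gave 0.29 (adjusted p = 0.0178, under the fold limit) and 0.22 (adjusted p = 0.106). No other annotated gene overlaps Vdr or the 3 RXR genes, and Cyp24a1 overlaps Pfdn4 on the opposite strand.

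The 5 genes with levels most like those of Vdr over the 12 libraries (Pearson r of log2 CPM, 13111 genes averaging 1 CPM or more) were Spg20, Wdsub1, Clec2l, Hydin and Nptn, with r from 0.991 to 0.994. The 12 libraries come from 6 mice and the chamber difference carries much of r, so the values only describe. Hydin came nearest in size, with 0.118, 0.582, 3.18 and 10.1 CPM in control ventricles, CUG960 ventricles, control atria and CUG960 atria. Clec2l followed the same order at 0.797, 1.91, 5.16 and 11.5 CPM. Spg20 moved only from 48.4 to 68.7 CPM over the same groups. For the partners r with Vdr was -0.94 (Rxra), -0.48 (Rxrb) and -0.84 (Rxrg). These values were computed with TMM scaling only, and the chamber results of Rxra and Rxrb turned on the scaling.

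Markers of other cells and of regions within the chambers were measured beside these results, from 14 lists with no gene at 0 in all libraries. The 6 sinoatrial node markers did not move one way: of 5 tested in atria 2 had a positive log2 fold change, and the median was -0.16. Hcn4, the pacemaker channel gene, and Vsnl1 rose in CUG960 atria (log2 fold change 2.55, SE 0.36, adjusted p = 0.00361, and 1.47, SE 0.21, adjusted p = 0.00374). Tbx18 gave -0.53 (adjusted p = 0.0101, under the fold limit), and Tbx3 gave -0.63 (adjusted p = 0.117), which DESeq2 called lower. The summed level of the 6 was 21.97 to 33.45 CPM in control and 35.1 to 37.9 CPM in CUG960 atria, with Tbx18 the most abundant gene on average. In ventricles 0 of 4 tested node markers were called by edgeR or DESeq2 (3 at an unadjusted p under 0.05). Of the 8 atrial cardiomyocyte markers 0 were called in atria by edgeR or DESeq2 (2 at an unadjusted p under 0.05), although their summed level was 27850 to 30570 CPM in control and 23290 to 25520 CPM in CUG960 atria, without overlap. In ventricles Nppa (1.301) and Mybphl (2.17) rose and Bmp10 fell by 4.06 on the log2 scale. Hey2, a transcription factor gene of ventricular cardiomyocytes, fell by 0.67 on the log2 scale in atria, and the other lists of cardiomyocytes gave Ryr2 alone in ventricles (-0.67). The 5 general cardiomyocyte markers, led by Myh6, summed to 37950 to 39530 CPM in control and 40450 to 42670 CPM in CUG960 atria, without overlap. In ventricles they summed to 44550 to 48150 and 46610 to 50710 CPM, ranges that overlapped. The part of these cells in the Vdr difference was not tested.

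Fibroblast (most abundant gene Dcn), macrophage (Csf1r), lymphocyte (Cd79a), epicardial and mesothelial (Upk3b) and lung epithelium (Scgb1a1) markers gave no call by edgeR in either chamber. At an unadjusted p under 0.05 there were 6 fibroblast, 0 macrophage, 2 lymphocyte, 1 epicardial and mesothelial and 0 lung genes in atria, and 2, 0, 0, 2 and 0 in ventricles. DESeq2 called Cd79a and Ms4a1 lower in atria and Wt1 lower in ventricles. The median log2 fold change of the 5 lymphocyte markers, all negative in both chambers, was -1.59 in atria and -0.42 in ventricles. Among smooth muscle and pericyte markers, led by Rgs5, Tagln rose by 1.21 on the log2 scale in atria and fell by 0.63 in ventricles, where Myh11 fell too (-0.65). Npr3, the most abundant endocardial marker, rose by 0.68 in ventricles. Among the adipocyte markers Plin1 fell by 1.86 on the log2 scale in ventricles, where all 4 had an unadjusted p under 0.05, and DESeq2 called Adipoq lower as well. In atria 0 were called by edgeR or DESeq2 (0 at an unadjusted p under 0.05). Epicardial and mesothelial markers summed to 155 to 274 CPM over the atrial libraries and to 4.06 to 7.77 CPM over the ventricular ones.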

How the data were processed

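Expected counts per gene were deposited by the authors, who aligned paired-end reads of strand-marking poly(A) libraries to mm10 (GRCm38) and quantified them with RSEM 1.3.1; whether strand was used in counting is not given in the sources used here. All values were whole numbers. Library totals ran from 116127966 to 160676189 counts. Genes were filtered with filterByExpr, scaled by TMM and tested per comparison with edgeR 4.0.16 (R 4.3.3) by the quasi-likelihood test, with Benjamini-Hochberg adjustment over all genes tested and 95% confidence intervals from the fit. Groups were chamber by genotype (n = 3). Counting intervals cover counting error only. CPM per kb used exon lengths from GENCODE M21. The atria and ventricles of a mouse share an animal, which pairs them across chambers (same-mouse correlation of deviations 0.05 to 0.306). Named genes were the 6 members, called genes of 8 pathway lists, the most abundant gene of each list, called markers and the 5 genes most correlated with Vdr. The members and lists were chosen with earlier results of these data known, and some lists came from that earlier work. Other genes next to Vdr were named after their values were seen. Scripts were tested on simulated counts. DESeq2 1.42.0, other scalings, filters and fold limits, a mouse block and leaving out each mouse were tried as alternatives. The result of 1 marker list is not reported here.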

Additional observations from a re-analysis of the deposited data

Results flagged for a closer look

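The CUG960 effect on Rxrg differed between chambers in the test of that difference (0.63 on the log2 scale, atria minus ventricles, SE 0.12, edgeR adjusted p = 0.02), with all 3 CUG960 libraries above the controls in atria and all 3 below them in ventricles. It did not pass without V327, V333, V119 or V123 (adjusted p = 0.0766 to 0.149). Depth does not limit this gene, which had 3327 to 8175 counts in each library.

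The effect on Cubn differed as well (-3.91, SE 0.45, adjusted p = 0.00178), from a rise in ventricles in 3 of 3 CUG960 mice and overlapping atrial groups. Leaving out any 1 mouse kept it between -4.26 and -3.48, with adjusted p from 0.00408 to 0.0158.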

How the results depend on the processing

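Vdr in ventricles kept its direction and its call in all 15 alternatives, from 2.22 to 2.45 on the log2 scale, and in atria it lay between 2.39 and 2.45. With the fold limit at 1.5 on the log2 scale, genes called numbered 216 in atria, 199 in ventricles, 2233 between chambers of controls and 2200 between those of CUG960 mice. Without a fold limit they numbered 2573, 1680, 9726 and 9517, and members called 2 in atria (Rxrg and the selected Vdr) and 4 between control chambers. For the chamber difference DESeq2 called 652 genes, and leaving out a mouse gave 74 to 131 genes and 0 to 1 members. The mouse as a replicate block changed no call of a member and gave 6113 and 5899 genes for the chamber comparisons, against 6098 and 5900; for the chamber difference it called 4 listed genes, against 2. Listed genes called otherwise ranged from 1 to 10 in atria, against 4, and from 2 to 7 in ventricles, against 6. Values that turned sign had passed no test, apart from Rxrb between control chambers. With library totals they were Rxrb at 0.264 and 0.2223 between chambers, and the chamber differences of Rxra (-0.03008) and Rxrb (-0.04172). Without 1 mouse they were the chamber difference of Vdr, which was given no test (-0.01038 without V327, highest 0.1833), Cubn in atria (0.1081 without V333, 0.05639 without V119, lowest -0.382), Nr4a1 in atria (0.8338 without V334, lowest -1.886), and the chamber differences of Rxra (-0.01287 without V334, -0.04051 without V123, highest 0.1047), Rxrb (-0.01208 without V327, -0.007464 without V333, -0.03088 without V119, highest 0.091) and Cyp27b1 (-0.3304 without V334, highest 2.014). Cyp27b1 in ventricles differed by -0.006925 CPM, by 0.004938 CPM without V334 and by 6.21e-05 CPM without V123, where its range over left-out mice was -0.01737 to 0.004938 CPM. The causes were not tested.

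Depth limits Cyp24a1 and Cyp27b1, whose counts allow no statement on small differences, and the VDR targets, 10 of which had no library above 3 counts. With 3 mice per group, the calls of Rbp4 in either chamber, of Aldh1a2, Nr4a1 and Cyp3a13 in ventricles and of the chamber difference of Rxrg were each lost with any of 4 mice left out and kept with either of the other 2. Chamber differences near the scaling shift depend on the scaling. Rxra was lower in atria in all 13 alternatives, but with library totals by no more than -0.02 in controls and -0.05 in CUG960 mice. Its size therefore cannot be given from these libraries. Rxrb turned sign between chambers with library totals and kept its sign in the other alternatives, so its direction rests on the scaling.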
